A study of Homo sapiens with 6 samples.

Results

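The genes described here are 10 transcription factors of epithelial–mesenchymal transition (EMT): *SNAI1*, *SNAI2*, *SNAI3*, *TWIST1*, *TWIST2*, *ZEB1*, *ZEB2*, *PRRX1*, *FOXC2* and *TCF4*. They were chosen by gene symbol, and all 10 were among the 20824 genes of the deposited RNA-Seq table. The table covers 21NT cells, an established breast cancer line that models ductal carcinoma *in situ*, after stable transfection with pcDNA3.1. The plasmid was the empty vector (EV) or carried TBX3iso1 or TBX3iso2, splice forms of the T-box transcription factor TBX3, of which TBX3iso2 has an additional exon in the DNA-binding domain. Cells of all 3 lines, EV included, were selected and kept in G418 and harvested near confluence, with no further treatment. Each line was a pool of resistant clones, and 2 mRNA libraries were sequenced per line, so the replicates are libraries of 1 transfected line. The labels do not say whether they came from separate cultures, and the p-values may therefore measure technical spread only.

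During EMT, epithelial cells lose their junctions and polarity and gain a motile, mesenchymal form. The SNAIL family (SNAI1, SNAI2 or SLUG, and SNAI3) and the ZEB family are zinc finger proteins that bind E-boxes and repress epithelial genes such as *CDH1*, which encodes E-cadherin. TWIST1 and TWIST2 are basic helix-loop-helix (bHLH) factors that bind E-boxes as dimers with E proteins, among them the product of *TCF4* (also called E2-2, not the Wnt effector TCF7L2). PRRX1, a homeobox factor, and FOXC2, a forkhead factor, are linked to mesenchymal cells of the embryo and to EMT in carcinoma.

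The lines differed in *TBX3* in the direction of their labels. *TBX3* stood at 8.52 and 8.24 RPKM (reads scaled to transcript length and library size) in EV, at 13.1 and 11.4 RPKM with TBX3iso1 and at 17.5 and 15.5 RPKM with TBX3iso2. All 4 isoform libraries exceeded EV. The difference was called with TBX3iso2 (log2 difference 0.97, limma, Benjamini-Hochberg adjusted p = 0.000257, fold 1.96) but missed the 1.5-fold threshold used below with TBX3iso1 (0.54, adjusted p = 0.00378, fold 1.45). The table gives 1 total per gene, without separating the isoforms. The libraries held 43176600 to 54512400 alignments each, and replicates correlated at r = 0.996 (EV), 0.994 (TBX3iso1) and 0.992 (TBX3iso2) over the genes tested. Of 9 epithelial markers, 8 averaged 0.5 RPKM or more. The exception was *KRT14*, which did not pass 0.0398 RPKM.

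RefSeq promoter windows (GRCh38.p14, 250 bases before and 50 after an annotated start) were at hand for 5 of the 10 genes: *TWIST2*, *ZEB1*, *ZEB2*, *PRRX1* and *TCF4*. *SNAI1*, *SNAI2*, *SNAI3*, *TWIST1* and *FOXC2* had none. The bases before the start are shown for *TWIST2* and for the most upstream of 7 *ZEB1* starts, because these were the only genes with windows that were expressed highly enough to be tested. Capitals mark a match to the E-box CAGGTG, which SNAIL and ZEB factors bind, or to the T-box core AGGTGT. The letters CAGGTGT hold both motifs.
TWIST2, chr2:238847835-238848084, plus strand: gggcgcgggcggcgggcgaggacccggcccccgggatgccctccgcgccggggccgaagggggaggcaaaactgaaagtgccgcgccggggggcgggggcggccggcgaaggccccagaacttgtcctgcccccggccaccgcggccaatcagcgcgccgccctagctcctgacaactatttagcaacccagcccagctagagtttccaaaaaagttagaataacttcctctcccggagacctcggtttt
ZEB1, chr10:31318167-31318416, plus strand: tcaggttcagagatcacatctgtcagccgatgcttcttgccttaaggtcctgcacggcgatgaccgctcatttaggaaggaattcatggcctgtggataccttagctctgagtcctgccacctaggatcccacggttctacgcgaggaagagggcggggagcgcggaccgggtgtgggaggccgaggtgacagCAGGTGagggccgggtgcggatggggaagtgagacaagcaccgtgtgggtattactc
No match lay in the *TWIST2* stretch, and the *ZEB1* stretch held 1 E-box that began 57 bases before the start. The core AGGTGT was found before the start on the gene's own strand in 2 other windows of these genes, each shown with 10 bases on either side.
ZEB1, chr10:31319077-31319102, plus strand: gagagcctctAGGTGTaaggaaggtg
TCF4, chr18:55588411-55588436, minus strand: gaggcgggggAGGTGTtgagattttt
These cores began 129 bases before a *ZEB1* start and 234 bases before a *TCF4* start. That *ZEB1* window also held AGGTGT on the opposite strand and CAGGTG on both strands, and some of these matches overlapped. Of the 20 windows of these genes, 3 held a motif on either strand, and none held the longer T-box site AGGTGTGA. Over all 35116 windows, 11.4% held AGGTGT, 0.98% held AGGTGTGA and 20.6% held CAGGTG. A match is a run of letters and does not show binding.

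In EV cells 2 of the 10 factors carried most of the RNA. RPKM is scaled to transcript length, so levels were set side by side between genes. The annotation behind those lengths is not given, and the order, shares and ratios between genes depend on it. *TWIST1* led at 31.5 ± 1.73 RPKM (SD, n = 2), followed by *SNAI2* at 12.2 ± 0.409 RPKM, *SNAI1* at 3.90 ± 0.0196 RPKM and *ZEB1* at 1.09 ± 0.0344 RPKM. The libraries of these 4 genes did not overlap one another. *ZEB2* at 0.159 ± 0.0220 RPKM and *TWIST2* at 0.156 ± 0.0493 RPKM could not be ordered, since their libraries overlapped. *SNAI3* (0.0731 ± 0.00866 RPKM) came next, and *PRRX1*, *FOXC2* and *TCF4* each averaged under 0.01 RPKM. *TWIST1* was at the 89.8th percentile of all genes in EV and *SNAI2* at the 76.7th, whereas *ZEB1* was at the 44.2nd.

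**Figure D1:**
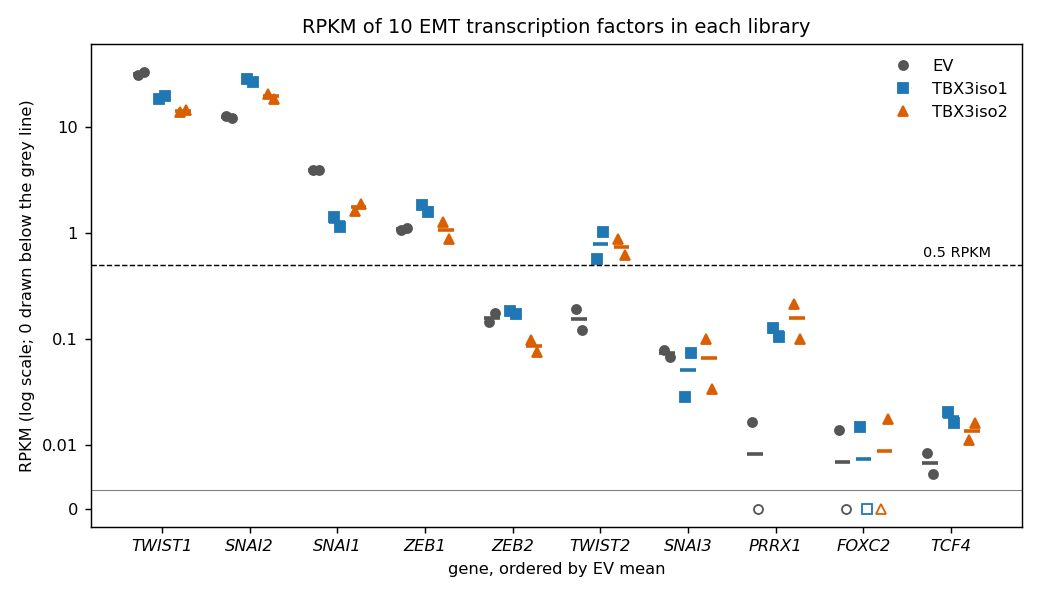
RPKM of each of the 10 genes in the 6 libraries on a log axis, with genes ordered by their EV mean, circles for EV, squares for TBX3iso1, triangles for TBX3iso2 and a short bar at each line's mean (n = 2). Open symbols below the grey line are values listed at 0, and the dashed line marks 0.5 RPKM, the mean over 6 libraries that a gene needed to be tested: *TWIST1* and *SNAI1* lay lower, and *SNAI2* and *TWIST2* higher, in all 4 isoform libraries than in both EV libraries.

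Genes that averaged 0.5 RPKM or more across the 6 libraries entered a limma fit on log2(RPKM + 0.1), a scale that understates the change of low genes. A gene was called where its fold change passed 1.5 and its Benjamini-Hochberg adjusted p was below 0.05. The filter kept 5 of the 10 factors, *SNAI1*, *SNAI2*, *TWIST1*, *TWIST2* and *ZEB1*, and left out *SNAI3*, *ZEB2*, *PRRX1*, *FOXC2* and *TCF4*. With TBX3iso1, 3 factors were called higher than in EV and 2 lower, where 7.46% of all 12805 genes tested were called higher and 14.1% lower. With TBX3iso2, 2 were called higher and 2 lower, where 8.94% of all genes tested were called higher and 12.3% lower. *TWIST2* reached the filter only through its levels in the isoform lines, so it had to differ between lines, and nothing is read from the counts. Both comparisons use the same EV libraries. The median log2 difference of all genes tested was -0.05 with TBX3iso1 and -0.00206 with TBX3iso2. Of the genes called with TBX3iso1, 34.6% were higher, and 49% under quantile normalization.

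*SNAI2* rose with both isoforms. The gene lies on chromosome 8, and its product SLUG is a zinc finger repressor also known from mammary basal cells. EV libraries held 12.5 and 11.9 RPKM, TBX3iso1 libraries 27.9 and 26.3 RPKM, and TBX3iso2 libraries 20.2 and 18.3 RPKM. The lines did not overlap: TBX3iso1 was highest, TBX3iso2 between and EV lowest. The log2 difference from EV was 1.14 with TBX3iso1 (standard error, SE, 0.0809, limma, Benjamini-Hochberg adjusted p = 5.23e-05) and 0.65 with TBX3iso2 (limma, Benjamini-Hochberg adjusted p = 0.000616), that is 2.20-fold and 1.57-fold. The TBX3iso2 fold was near the threshold, and without TBX3iso2 replicate 1 the log2 difference was 0.58 and under it.

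*SNAI1*, the family member best known as an early repressor of E-cadherin, moved the other way. Its GRCh37 position is chromosome 20, 48599517 to 48605423, plus strand, and its canonical transcript has 3 exons. Its libraries held 3.91 and 3.88 RPKM in EV, 1.42 and 1.12 RPKM with TBX3iso1, and 1.61 and 1.87 RPKM with TBX3iso2. All 4 isoform libraries were under both EV libraries, and the TBX3iso2 libraries were above the TBX3iso1 libraries. The log2 difference was -1.55 with TBX3iso1 (SE 0.144, limma, Benjamini-Hochberg adjusted p = 0.000172) and -1.12 with TBX3iso2 (limma, Benjamini-Hochberg adjusted p = 0.000724). These falls were 2.93-fold and 2.18-fold. The annotation lists a processed pseudogene, *SNAI1P1*, and how reads that match both were counted is not given. Since the 2 SNAIL genes moved apart, the ratio of *SNAI2* to *SNAI1* RPKM was 3.14 ± 0.0893 in EV (SD, n = 2), and 21.5 ± 2.67 and 11.2 ± 1.95 in the TBX3iso1 and TBX3iso2 lines.

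*TWIST1*, a bHLH factor of cranial mesoderm and neural crest, fell with both isoforms. Its annotated GRCh37 position is chromosome 7, 19060614 to 19157259, minus strand. EV libraries held 30.3 and 32.7 RPKM, TBX3iso1 libraries 18.2 and 19.6 RPKM, and TBX3iso2 libraries 13.8 and 14.2 RPKM. The lines did not overlap, and TBX3iso2 was lowest. The log2 difference was -0.73 with TBX3iso1 (SE 0.0774, limma, Benjamini-Hochberg adjusted p = 0.000309) and -1.16 with TBX3iso2 (limma, Benjamini-Hochberg adjusted p = 4.16e-05), or 1.66-fold and 2.24-fold lower. *TWIST1* remained well expressed, at the 83.5th percentile of all genes with TBX3iso1 and the 78.8th with TBX3iso2.

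*TWIST2*, its close paralog, known from dermal and skeletal precursors, rose from a level near the limit of the data. Its GRCh37 position is chromosome 2, 239756673 to 239832230, plus strand. Its libraries held 0.190 and 0.121 RPKM in EV, 0.567 and 1.01 RPKM with TBX3iso1, and 0.871 and 0.611 RPKM with TBX3iso2. Both isoform lines were above EV and overlapped each other. At the canonical transcript length these values correspond to about 4.7 to 9.4 reads in EV and 23.8 to 45.6 reads in the isoform libraries, an estimate that depends on the annotation the authors used, which is not given. Because the filter selected *TWIST2* through its higher lines, its p-values are given from the fit of all 20824 genes without a filter. There the log2 difference was 1.76 with TBX3iso1 (limma, Benjamini-Hochberg adjusted p = 0.0204) and 1.71 with TBX3iso2 (limma, Benjamini-Hochberg adjusted p = 0.0214). Its size depends on the pseudocount: with 1 RPKM it was 0.62 and 0.59, and with 0.01 RPKM it was 2.24 and 2.19. Without TBX3iso1 replicate 2 or TBX3iso2 replicate 1, the higher library of each line, its mean over the rest was under the filter and it was not tested. In the filtered table, in an unmoderated linear model of the log2 values its Benjamini-Hochberg adjusted p was 0.0652 (TBX3iso1) and 0.0661 (TBX3iso2).

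*ZEB1*, a zinc finger and homeodomain repressor, was called higher with TBX3iso1 only, at the edge of the threshold. Its GRCh37 position is chromosome 10, 31607424 to 31818742, plus strand, and its canonical transcript has 9 exons. Its libraries held 1.07 and 1.12 RPKM in EV, 1.84 and 1.57 RPKM with TBX3iso1, and 1.26 and 0.881 RPKM with TBX3iso2. The TBX3iso1 libraries were above all others, whereas the TBX3iso2 libraries lay on either side of EV. The log2 difference from EV was 0.60 with TBX3iso1 (SE 0.182, limma, Benjamini-Hochberg adjusted p = 0.0311), a fold of 1.51. This call was lost when any of the 4 libraries was left out: limma's Benjamini-Hochberg adjusted p was 0.143 without EV replicate 1, 0.116 without EV replicate 2, 0.123 without TBX3iso1 replicate 1 and 0.05 without TBX3iso1 replicate 2. With TBX3iso2 the log2 difference was -0.05, with a 95% interval of -0.47 to 0.37 (limma, Benjamini-Hochberg adjusted p = 0.849), and it was 0.11 under quantile normalization.

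The antisense transcript *ZEB1-AS1* overlaps the start of *ZEB1* on the other strand. It averaged 4.72 ± 0.00594 RPKM (SD, n = 2) for EV, 2.52 ± 0.0433 RPKM for TBX3iso1 and 3.43 ± 0.292 RPKM for TBX3iso2, above *ZEB1* in every line. It was called lower with TBX3iso1 (log2 difference -0.88, limma, Benjamini-Hochberg adjusted p = 0.000496), and its difference with TBX3iso2 was -0.45 (adjusted p = 0.00928), under the fold threshold. The libraries were stranded, but whether counting used the strand is not stated, so reads where the 2 genes overlap cannot be told apart. The same holds for *ZEB2* with *ZEB2-AS1* and *SNAI3* with *SNAI3-AS1*.

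**Figure D2:**
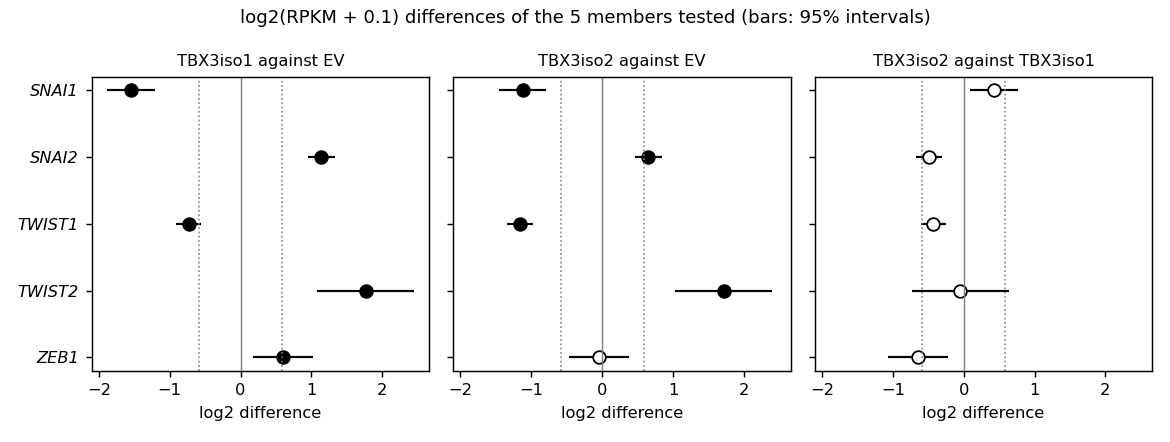
Difference in log2(RPKM + 0.1) of the 5 factors tested, in 3 panels for TBX3iso1 against EV, TBX3iso2 against EV and TBX3iso2 against TBX3iso1, with 95% intervals from limma, filled circles for called differences and dotted lines at a 1.5-fold change. *SNAI1* and *TWIST1* lie left of 0 and *SNAI2* and *TWIST2* right of 0 in both comparisons with EV, and no circle is filled between the isoforms. The circles show the filtered fit, which *TWIST2* entered only through its levels in the isoform lines.

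The isoform lines were next compared with each other. By limma, 0 of the 5 factors tested were called between TBX3iso2 and TBX3iso1, where 3.47% of all genes tested were called higher with TBX3iso2 and 2.82% lower. Of the 5, 4 had an unadjusted p under 0.05 and 2 an adjusted p under 0.05, and linear models without moderation also called 0. *SNAI2* was lower with TBX3iso2 than with TBX3iso1 by a log2 difference of -0.49 (SE 0.0809, limma, Benjamini-Hochberg adjusted p = 0.0082), and *TWIST1* by -0.43 (limma, Benjamini-Hochberg adjusted p = 0.0117), both under the fold threshold at 1.40-fold and 1.34-fold. *SNAI1* differed by 0.43, with a 95% interval of 0.09 to 0.76 (limma, Benjamini-Hochberg adjusted p = 0.09). *ZEB1* differed by -0.64, with an interval of -1.07 to -0.22 (limma, Benjamini-Hochberg adjusted p = 0.0534), which misses the p threshold. The *ZEB1* difference was called under 4 of 13 alternatives, among them median-ratio scaling, quantile normalization and the fit without TBX3iso2 replicate 1 (limma, Benjamini-Hochberg adjusted p = 0.043, 0.0325 and 0.0138), so the call rests on the processing. *TWIST2* differed by -0.05, with an interval of -0.73 to 0.63 that leaves room for a change of over 1.5-fold either way. Over all genes called between the isoforms, 55.2% were higher with TBX3iso2, against 43.4% under median-ratio scaling and 44.7% under quantile normalization.

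The 5 factors under the filter averaged less than 0.5 RPKM over the 6 libraries. *ZEB2*, the paralog of *ZEB1*, held 0.144 and 0.175 RPKM in EV, 0.185 and 0.171 RPKM with TBX3iso1, and 0.0981 and 0.0747 RPKM with TBX3iso2. Both TBX3iso2 libraries were under the other 4, which overlapped one another. By the length estimate these were about 30.0 to 46.3 reads with TBX3iso2 and 69.8 to 87.4 reads in the others. In the fit without a filter its log2 difference with TBX3iso2 was -0.48 (limma, Benjamini-Hochberg adjusted p = 0.046 over 20824 genes), under the fold threshold. Adding 0.1 RPKM shrinks differences at this level, and the ratio of the mean RPKM with TBX3iso2 to that in EV was 0.543. *PRRX1* was listed at 0.0167 and 0 RPKM in EV, at 0.126 and 0.105 RPKM with TBX3iso1, and at 0.215 and 0.0998 RPKM with TBX3iso2. All isoform libraries were above EV, at about 17.5 to 44.5 reads against about 3.7 and 0 reads in EV. Without a filter *PRRX1* was called higher with both isoforms (limma, Benjamini-Hochberg adjusted p = 0.0399 and 0.0234), where 5.47% and 6.38% of all genes were. With an EV library at 0 its fitted fold depends on the pseudocount, and none is given.

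*SNAI3*, the third SNAIL gene, ranged from 0.0286 to 0.0994 RPKM, about 2.5 to 8.8 reads, and its lines overlapped. *TCF4* ranged from 0.00529 to 0.0203 RPKM, about 1.8 to 8.3 reads. All 4 isoform libraries were above both EV libraries by a few reads, with means of 0.0183 RPKM (TBX3iso1) and 0.0137 RPKM (TBX3iso2) against 0.00682 RPKM (EV). On the log2 scale, where 0.1 RPKM is added to values this low, the differences were 0.15 and 0.09 and were not called without a filter (limma, Benjamini-Hochberg adjusted p = 0.118 and 0.307). *FOXC2* was listed at 0 in 3 libraries, 1 of each line, and at 0.0137, 0.0149 and 0.0174 RPKM in the others. Multiplied by the alignments of each library, these 3 values came to 0.749 to 0.759 reads per kilobase, equal within 1.33%, so the same small step of the count lay behind each. *SNAI3* and *FOXC2* were not called in the unfiltered fit either, with adjusted p (limma, Benjamini-Hochberg) of 0.561 and 0.854 for *SNAI3* and 0.998 and 0.94 for *FOXC2*.

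The make-up of the group as a whole shifted from *TWIST1* to *SNAI2*. *TWIST1* made up 62.8% and 65.4% of the summed RPKM of the 10 factors in the EV libraries, 36.2% and 39.2% with TBX3iso1, and 36.2% and 39.3% with TBX3iso2. *SNAI2* made up 25.9% and 23.8% in EV, 55.4% and 52.6% with TBX3iso1, and 52.9% and 50.7% with TBX3iso2. In each isoform library *SNAI2* was above *TWIST1*, and in both EV libraries it was below. The ratio of *SNAI2* to *TWIST1* RPKM was 0.389 ± 0.0343 in EV (SD, n = 2), 1.44 ± 0.133 with TBX3iso1 and 1.37 ± 0.121 with TBX3iso2. The ratio in the isoform lines overlapped although the levels of both genes were lower with TBX3iso2. The summed RPKM was 48.2 and 50.0 in EV, 50.3 and 49.9 with TBX3iso1, and 38.2 and 36.1 with TBX3iso2. It was thus lower in the TBX3iso2 libraries than in the other 4, which lay within 48.2 to 50.3. The ratio of *TWIST1* to *TWIST2* fell within every isoform library to between 15.9 and 32.1, from 159 and 271 in EV. In RNA from bulk cells, fewer cells that express a gene and less of its RNA per cell cannot be told apart.

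**Figure D3:**
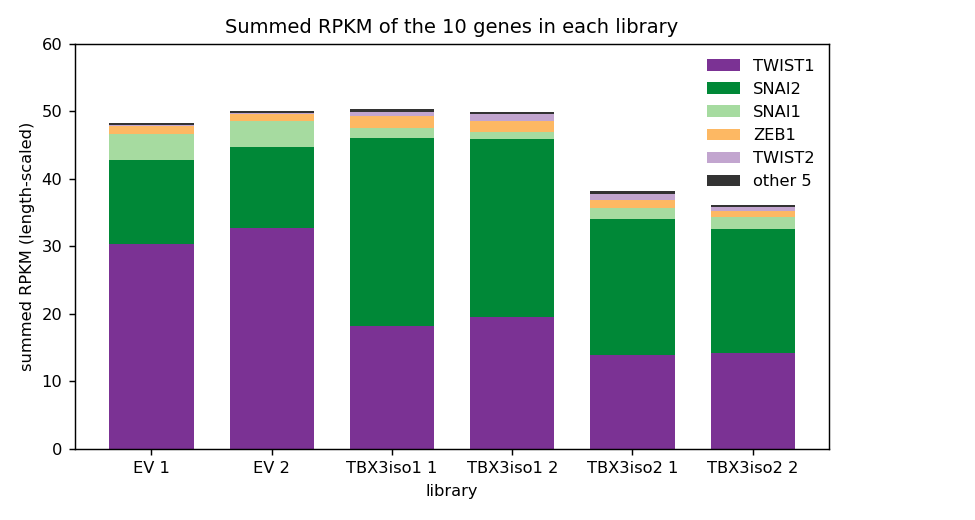
Summed RPKM of the 10 factors in each of the 6 libraries as stacked bars, coloured by gene, with *SNAI3*, *ZEB2*, *PRRX1*, *FOXC2* and *TCF4* joined as the other 5. *TWIST1* is the largest block in both EV libraries and *SNAI2* in all 4 isoform libraries, and the TBX3iso2 bars are shorter, at 38.2 and 36.1 RPKM.

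Genes with the most similar pattern over the 6 libraries were listed for each factor called with both isoforms, as a description over 6 libraries of 3 lines. For *SNAI2* these included *TGDS* (Pearson's r = 0.999) and *CUL4A*, a ubiquitin ligase scaffold (r = 0.998). *CUL4A* averaged 18.1, 24.0 and 21.0 RPKM in EV, TBX3iso1 and TBX3iso2. For *SNAI1* they were *SLC25A42*, *ESPN*, an actin bundler, and *ACTA2*, smooth muscle actin (r = 0.998 for the last). For *TWIST1* they were *NNMT*, nicotinamide N-methyltransferase, *BTN3A2* and *UAP1L1*, and *NNMT* averaged 16.6, 6.41 and 3.54 RPKM in EV, TBX3iso1 and TBX3iso2. For *TWIST2* they were *LOC101928820*, *KATNBL1P6* and *YTHDF2*, a reader of modified RNA. Many genes came close: 645 had r over 0.95 with *SNAI1*, 261 with *SNAI2*, 509 with *TWIST1* and 220 with *TWIST2*.

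Genes that work with the factors were counted next, in lists drawn up by hand with earlier results of these data known. The counts are therefore a description only. The counts stand beside the 7.46% of all genes tested that were called higher and the 14.1% called lower with TBX3iso1, and the 8.94% and 12.3% with TBX3iso2. Of 6 bHLH partners and inhibitors, 5 were tested, and *ID3*, an inhibitor that sequesters E proteins, averaged 19.7 ± 0.519 RPKM (SD, n = 2) in EV and rose to 37.7 ± 3.59 RPKM (TBX3iso1) and 39.5 ± 4.58 RPKM (TBX3iso2). With TBX3iso1, 2 of the 5 were called higher, and with TBX3iso2, 1. Of 18 corepressors of SNAIL and ZEB factors, limma called 0 with TBX3iso1, where 3 were higher and 4 lower at an unadjusted p under 0.05, and 1 with TBX3iso2, the LIM protein gene *WTIP* (mean 0.468 RPKM in EV and 0.759 RPKM with TBX3iso2). *WTIP* was under 0.5 RPKM in EV and passed the filter through the isoform lines, and without a filter its adjusted p was 0.0298 (limma, Benjamini-Hochberg). Of 17 genes that control the turnover of SNAIL and TWIST proteins, 2 were called higher with TBX3iso1 and 3 with TBX3iso2. Among them *PSMD14*, a proteasomal deubiquitinase, rose from 70.2 ± 1.17 RPKM in EV to 119 ± 11.5 RPKM and 124 ± 5.99 RPKM, and *LOXL3*, a lysyl oxidase, from 0.838 ± 0.105 RPKM to 1.35 ± 0.185 RPKM and 2.24 ± 0.0762 RPKM. Protein levels of the factors were not measured in these data. Of 15 other EMT-linked transcription factors, 11 were tested. With TBX3iso1, 2 of them were called higher and 1 lower. With TBX3iso2 these counts were 3 and 2. The median log2 differences of these 4 lists lay between 0.0047 and 0.19 with TBX3iso1 and between 0.09 and 0.15 with TBX3iso2, beside -0.05 and -0.00206 over all genes tested. *FOSL1*, an AP-1 subunit, was called higher with both, rising from 160 ± 3.39 RPKM to 242 ± 0.0912 RPKM (TBX3iso1) and 382 ± 15.6 RPKM (TBX3iso2). So was *LEF1*, a Wnt effector, from 0.850 ± 0.0528 RPKM to 1.34 ± 0.0103 RPKM and 1.54 ± 0.116 RPKM. *SOX4* fell from 7.61 ± 0.209 RPKM to 3.64 ± 0.0520 RPKM and 3.71 ± 0.148 RPKM.

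Genes that the SNAIL, ZEB and TWIST factors are known to act on, or that oppose them, were counted in the same way. These lists too were drawn up with earlier results of these data known. The counts stand beside the same shares of all genes tested (7.46% higher and 14.1% lower with TBX3iso1, 8.94% and 12.3% with TBX3iso2). Of 26 tested epithelial genes repressed through E-boxes, 8 were called lower with each isoform (median log2 difference of the list -0.37 and -0.22, beside -0.05 and -0.00206 over all genes tested). The largest fall was in *TJP3*, a tight junction protein gene, from 11.8 ± 0.326 RPKM (EV) to 1.74 ± 0.296 RPKM (TBX3iso1) and 2.72 ± 0.103 RPKM (TBX3iso2). *CDH1*, which was added after its values were seen, was called lower with TBX3iso1 (log2 difference -0.70, limma, Benjamini-Hochberg adjusted p = 0.00148). With TBX3iso2 it was under the fold threshold (-0.51, limma, Benjamini-Hochberg adjusted p = 0.00592). Of 15 tested regulators of epithelial identity, TBX3iso1 cells had 8 called lower and 1 higher, and TBX3iso2 cells 5 and 1 (median -0.60 and -0.39). The called extremes were *TP63*, the basal epithelial p63 gene, which fell from 3.35 ± 0.445 RPKM to 0.287 ± 0.0615 RPKM and 0.299 ± 0.0459 RPKM, and *OVOL1*, a repressor of mesenchymal programmes, which rose from 2.96 ± 0.145 RPKM to 6.37 ± 0.190 RPKM with TBX3iso1 and by a log2 difference of 1.21 with TBX3iso2. *TP63* passed the filter through EV only, and without a filter its adjusted p was 0.00166 and 0.0016 (limma, Benjamini-Hochberg). Of 17 tested mesenchymal genes, TBX3iso1 cells had 8 called higher and 3 lower, and TBX3iso2 cells 4 of each (median log2 difference 0.55 and 0.18). *VIM*, which encodes vimentin, rose from 18.7 ± 0.286 RPKM to 154 ± 9.50 RPKM and 269 ± 12.4 RPKM, whereas *ACTA2* fell from 4.13 ± 0.294 RPKM to 0.777 ± 0.155 RPKM and 1.23 ± 0.143 RPKM.

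**Figure D4:**
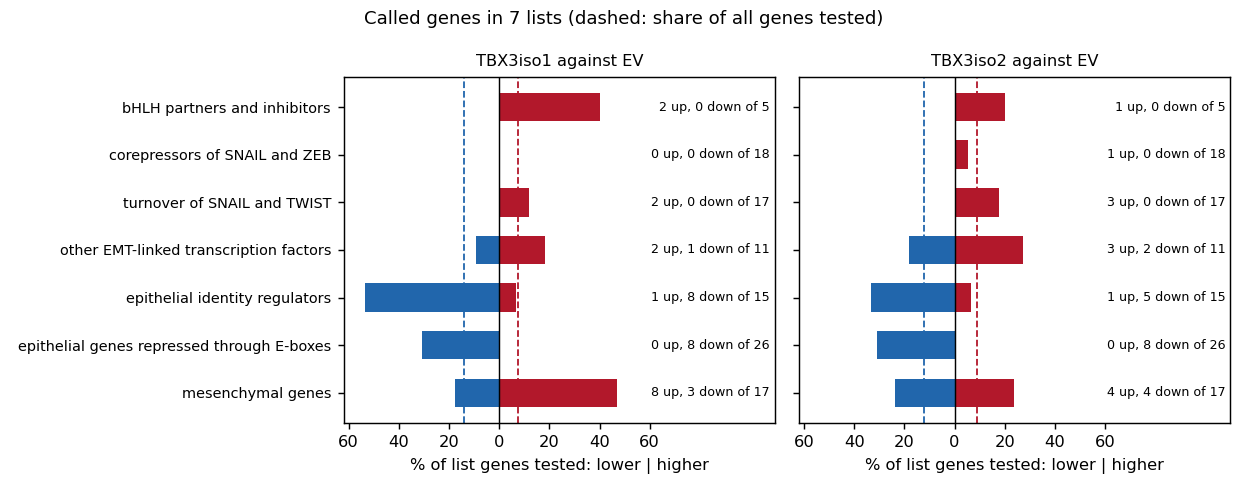
Share of the tested genes of 7 lists that were called higher (right) or lower (left) with TBX3iso1 or TBX3iso2 against EV, in percent, with the counts printed at the right and dashed lines at the share of all 12805 genes tested. Among the 7 lists, epithelial identity regulators had 8 of 15 genes lower with TBX3iso1 and 5 of 15 with TBX3iso2. Corepressors had 0 of 18 called with TBX3iso1 and 1 of 18 with TBX3iso2. The lists themselves were not tested.

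Markers of other cell types moved between the lines beside the factors. Summed RPKM of 8 fibroblast markers was 4.73 to 5.01 for EV, 8.19 to 8.84 for TBX3iso1 and 7.20 to 7.62 for TBX3iso2, of which *COL1A1* alone averaged 0.5 RPKM or more. *LUM* held 0.267 and 0.190 RPKM in EV, 0.440 and 0.524 RPKM with TBX3iso1 and 0.138 and 0.151 RPKM with TBX3iso2, *COL1A2* did not pass 0.0539 RPKM outside the TBX3iso1 libraries, where it held 0.276 and 0.354 RPKM, and the other 5 markers did not pass 0.156 RPKM. Summed RPKM of 5 endothelial markers was 7.41 to 7.77 for EV, 1.42 to 1.49 for TBX3iso1 and 1.32 to 1.49 for TBX3iso2, most of it from *PECAM1*. *KDR* held 0.164 to 0.187 RPKM in EV and TBX3iso1 and less with TBX3iso2, *TEK* did not pass 0.122 RPKM, and *CDH5* and *VWF* did not pass 0.0830 RPKM. Summed RPKM of the 4 leukocyte markers in the table was 52.6 to 54.8 for EV, 36.5 to 36.8 for TBX3iso1 and 36.2 to 36.7 for TBX3iso2, carried by *CD68* and *CD14*, while *PTPRC* did not pass 0.0102 RPKM. *CD3E* was listed at 0 in 5 of the 6 libraries and at 0.0299 RPKM in the other. The part of these markers in the differences of the factors was not tested.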

How the data were processed

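RNA from 21NT transfectants (EV, TBX3iso1 and TBX3iso2, 2 libraries each) was made into stranded mRNA libraries and sequenced paired-end. Per the methods and the submitters' processing notes, the authors used TopHat for alignment to hg19 and Partek for the deposited RPKM values, which come with the number of alignments of each library. Software versions, the gene annotation and the use of strand are not given in the sources used here. The table holds no counts, so the precision from depth was only approximated, as RPKM multiplied by alignments and by the canonical transcript length of GENCODE on GRCh37, the same build as hg19.

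A pseudocount of 0.1 RPKM and a log2 scale were used. In limma 3.58.1 (R 4.3.3), 12805 of the 20824 genes, those averaging 0.5 RPKM or more, were fitted with 1 mean per line over all 6 libraries and trended moderation, and p-values were adjusted over them by Benjamini-Hochberg. Calls needed an adjusted p under 0.05 and a fold over 1.5. With 2 libraries per line an exact permutation test cannot go below p = 0.333 and was not used. The fit was tested on simulated data. Named genes were the 10 factors, *TBX3*, antisense partners, the called extremes of each list against EV and the 3 genes most correlated with each factor called with both isoforms. *CDH1* was added after its values were seen. A gene that meets this rule is not reported here. The factors and lists were chosen with earlier results of these data known. Alternatives were 2 pseudocounts, 2 filters, 2 scalings, a fit on the compared lines, a replicate block, 2 unmoderated models and leaving out each library.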

Additional observations from a re-analysis of the deposited data

Results flagged for a closer look

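*SNAI2* and *TWIST1* were picked out because the 2 isoform lines, each a pool of clones, differed in a direct test between them. The log2 difference of TBX3iso2 from TBX3iso1 was -0.49 for *SNAI2* (limma, Benjamini-Hochberg adjusted p = 0.0082) and -0.43 for *TWIST1* (adjusted p = 0.0117). Both libraries with TBX3iso2 were below both with TBX3iso1 for each gene, and both folds were under 1.5. Total *TBX3* was higher with TBX3iso2 than with TBX3iso1 (log2 difference 0.43, limma, Benjamini-Hochberg adjusted p = 0.0275, fold 1.35). Its part in these differences was not tested. In the unmoderated models the Benjamini-Hochberg adjusted p was 0.0791 and 0.0734 for *SNAI2* and 0.0791 and 0.142 for *TWIST1*, and without TBX3iso1 replicate 2 limma gave 0.0616 for *TWIST1*, so the difference misses the threshold there. With 2 libraries per line, no test for a single deviating library was possible.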

How the results depend on the processing

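In all 14 alternatives *SNAI1*, *SNAI2* and *TWIST1* kept their direction against EV with both isoforms, and only *SNAI2* with TBX3iso2 lost its call, in 1. *TWIST2* lost its call with both isoforms in the 2 unmoderated models. *ZEB1* with TBX3iso1 lost its call in 8 of 13. The number of factors called with TBX3iso1 moved from 5 to 3 under a filter at a mean of 2 RPKM, where 3 were tested, and in both unmoderated models. It was 3 to 4 with 1 library left out, lowest without TBX3iso1 replicate 2. With TBX3iso2 it was 2 to 4, lowest without TBX3iso2 replicate 1. In both of those *TWIST2* was not tested. Between the isoforms it was 1 under median-ratio scaling, quantile normalization and the replicate block, which called *ZEB1* (log2 difference -0.64, limma adjusted p = 0.0199), and 0 to 1 with 1 library left out. The block changed no other call of a factor. Same-numbered libraries deviated together at r = 0.22 (EV and TBX3iso1), 0.114 (EV and TBX3iso2) and 0.499 (the isoforms), and the labels do not say what a number shares. Differences that changed sign were those of *ZEB1* with TBX3iso2 (0.11 under quantile normalization, -0.28 to 0.19 with 1 library left out, the highest without TBX3iso2 replicate 2) and of *TWIST2* between the isoforms (-0.42 to 0.17 with 1 left out, the highest without TBX3iso2 replicate 2), none of them called. Over all genes, a pseudocount of 1 RPKM lowered the calls from 2757 to 1812 with TBX3iso1 against EV and from 2720 to 1870 with TBX3iso2. Between the isoforms it lowered them from 805 to 419. With the 2 RPKM filter 1847 genes were called with TBX3iso1 against EV, 1894 with TBX3iso2 and 504 between the isoforms. The unmoderated models on log2 and unlogged values called 1890 and 1980 with TBX3iso1, and 1963 and 2049 with TBX3iso2. Between the isoforms these models called 199 and 186. Where a line was left with 1 library, it was assumed to vary like the others. Beyond the settings that test fewer genes, the cause of these shifts was not tested. *SNAI3*, *FOXC2* and *TCF4* in all lines, and *PRRX1* and *TWIST2* in EV, rest on under 10 reads a library by the length estimate.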
